A study of Homo sapiens with 8 samples.

Results

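The genes described here encode the subunits, assembly factors and activators of the proteasome. They were taken as every row of both deposited tables whose Ensembl identifier belongs, in GENCODE release 29, to a protein-coding gene with a symbol that starts with PSMA, PSMB, PSMC, PSMD, PSME, PSMF or PSMG and a digit. This gave 49 of the 66206 identifiers in each table. PSMC3IP, a cofactor of homologous recombination, has a symbol of this form but is no part of the proteasome, so it is counted among the 49 and left out of sums. The symbol pattern alone matched 86 rows, of which 32 were pseudogenes. Together the pseudogenes held 62 to 131 reads per library, 0.0271 to 0.0679% of the reads of the 49 genes.

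The proteasome is the protease that degrades ubiquitin-tagged proteins. Its 20S core is a barrel in which outer rings of alpha subunits gate the entrance and inner rings of beta subunits hold the proteolytic sites. A 19S regulatory particle caps the barrel: its base holds the ATPases that unfold and thread substrates, and its lid removes ubiquitin chains. Interferon-inducible beta subunits can replace the constitutive catalytic subunits to form the immunoproteasome, which favours the production of peptides for antigen presentation.

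RNA was sequenced from A549 cells, an established human lung adenocarcinoma line, in 8 libraries that form 4 groups of 2. Cells of the LY6K-AS knockdown group received 25 pmol of a gapmer with locked nucleic acid (LNA) ends, an antisense molecule that makes RNase H cut the RNA it pairs with. Its target was LY6K-AS, a long non-coding RNA. Their controls received 25 pmol of a scramble LNA gapmer. Cells of the YWHAG knockdown group received 40 pmol of an siRNA against YWHAG, which encodes 14-3-3 gamma, and their controls 40 pmol of a scramble siRNA. Every group went through the same transfection reagent, and no untransfected cells were analysed here. All 8 libraries come from 1 cell line. The knockdown libraries are titled LNA1 and LNA3, and si1 and si2, and the labels do not say whether these are separate oligonucleotides or separate cultures, so p-values here reflect the spread between libraries, which may be only technical. By its title the series deals with lung adenocarcinoma and mitotic progression.

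The deposited values were RPKM, which are reads per kilobase of a gene and 1e6 reads of the library. The totals behind them were 26.2 and 30.9 M reads (M, 1e6) in LY6K-AS knockdown libraries 1 and 2, 34.0 and 30.5 M in scramble LNA libraries 1 and 2, 34.6 and 33.7 M in YWHAG knockdown libraries 1 and 2, and 34.5 M in each of the scramble siRNA libraries, which are numbered 2 and 3 after their table. Mitochondrially encoded genes took 8.37 and 4.12% of reads in the LY6K-AS knockdown libraries against 8.43 and 6.43% in the scramble LNA libraries, and 13.99 and 18.2% in the YWHAG knockdown libraries against 15.3 and 18.2% in the scramble siRNA libraries. The epithelial markers EPCAM, KRT8, KRT18, KRT19 and CDH1 were all present, and so was CDH2, which is not an epithelial marker. Together with CDH2 they had summed levels of 583.7 to 1010.4 RPKM, while 5 endothelial markers summed to at most 0.0920 RPKM in any library. Of 6 immune and 6 fibroblast markers, 1 and 1 reached 0.5 RPKM in the LNA table and 1 and 2 in the siRNA table. In bulk RNA, fewer cells expressing a gene and less RNA per cell cannot be told apart.

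The gene taken as the target was lower in each knockdown. LNCOC1 is the annotated gene antisense to LY6K and stands here for LY6K-AS, an assumption from its position that the labels do not state. Its counts were 3 and 8 reads in the LY6K-AS knockdown libraries, against 34 and 17 reads in the scramble LNA libraries. At that depth it lay below the expression filter, and a fit without the filter gave -0.14 ± 0.05 (log2 change ± SE, limma adjusted p = 0.336). Its levels were 0.0202 and 0.0456 RPKM against 0.176 and 0.0979 RPKM. The fit added 1 to each RPKM before taking logs, so at these levels -0.14 understates the change. YWHAG had 13.5 and 4.91 RPKM in the YWHAG knockdown libraries, against 163 and 158 RPKM in the scramble siRNA libraries, a log2 change of -4.12 ± 0.43 (SE) that also did not pass over all genes (limma adjusted p = 0.130).

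Proteasome genes are known to share promoter elements, and the RefSeq promoters (GRCh38.p14) of 43 of the 49 genes could be matched by symbol. Within the 250 bases before the annotated start, on either strand, the antioxidant response element core TGACNNNGC, to which NRF1 and NRF2 bind, was found in 11 promoters (25.6%), against 11.03% of 27305 promoters. CCAAT, the box bound by NF-Y, was found in 19 (44.2%, against 33.0% of all promoters). PSMC3IP, no proteasome gene, is among the 43 and among these 19. The GAS motif TTCNNNGAA, bound by STAT dimers, was found in 5 (11.6%, against 6.78%), and the core of the interferon-stimulated response element, GAAA followed by any 2 bases and GAAA again, in 5 other promoters (11.6%, against 3.07%). A match only says that the letters are there. The motifs do not overlap in the promoters shown. To show where the matches lie, the 100 bases directly before the start of 6 genes of different roles are given 5′ to 3′ on the gene's own strand, with the matches in capitals.
PSMA3, alpha subunit, chr14:58244743-58244842, plus strand, CCAAT on both strands: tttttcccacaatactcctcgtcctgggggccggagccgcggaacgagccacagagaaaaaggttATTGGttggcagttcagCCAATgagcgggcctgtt
PSMC2, base ATPase, chr7:103347543-103347642, plus strand, CCAAT: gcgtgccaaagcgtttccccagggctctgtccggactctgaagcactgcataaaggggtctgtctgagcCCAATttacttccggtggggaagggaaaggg
PSMD3, lid subunit, chr17:39980707-39980806, plus strand, TTCNNNGAA and TGACNNNGC: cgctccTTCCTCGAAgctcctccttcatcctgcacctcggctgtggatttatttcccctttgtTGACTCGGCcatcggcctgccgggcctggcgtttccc
PSMG2, assembly chaperone, chr18:12658638-12658737, plus strand, TGACNNNGC: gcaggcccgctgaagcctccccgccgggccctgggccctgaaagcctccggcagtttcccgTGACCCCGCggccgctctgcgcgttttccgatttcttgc
PSMB10, immunoproteasome subunit, chr16:67936851-67936950, minus strand, interferon-stimulated response element: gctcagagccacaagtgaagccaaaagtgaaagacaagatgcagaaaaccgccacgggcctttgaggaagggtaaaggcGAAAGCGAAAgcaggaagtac
PSME2, interferon-inducible activator, chr14:24146611-24146710, minus strand, interferon-stimulated response element: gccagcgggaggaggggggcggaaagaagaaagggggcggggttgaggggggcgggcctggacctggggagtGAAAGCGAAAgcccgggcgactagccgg

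The match to the interferon-type element thus began 21 bases before the RefSeq start of PSMB10 and 28 before that of PSME2. The match to TGACNNNGC began 37 bases before PSMD3 and 39 before PSMG2. Binding was not measured. The other members with a match to the interferon-type element were PSMA4, PSMB4 and PSMG4. TGACNNNGC was also found in PSMB3, PSMB9, PSMD5, PSMD9, PSMD12, PSME1, PSME2, PSME4 and PSMG1.

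A549 controls expressed the constitutive proteasome at high level and the immunoproteasome at a level near the filter. Per kilobase of exon, the alpha genes ranged from 3.002 to 208 RPKM in the scramble LNA libraries (means of 2) and from 2.11 to 112 RPKM in the scramble siRNA libraries, with PSMA7 the highest and PSMA2 and PSMA6 the lowest of the ring in both tables. The constitutive beta genes ranged from 27.5 to 168 RPKM and from 21.4 to 141 RPKM. PSMB8, PSMB9 and PSMB10, the immunoproteasome counterparts of PSMB5, PSMB6 and PSMB7, ranged from 0.917 to 1.73 RPKM and from 0.463 to 1.87 RPKM. The base ATPase PSMC4 had the highest mean of all 49 in the LNA table, 208 RPKM, and the beta subunit PSMB3 in the siRNA table, 141 RPKM. The order is not a measure of protein, and the tables differ for single genes. They were deposited with unlike length divisors, so levels may not be comparable between them. PSMB3 stood at 43.9 RPKM in the scramble LNA libraries and PSMC1 at 0.249 RPKM there against 11.7 RPKM in the scramble siRNA libraries. Of the exon bases of PSMC1, 75.8% also lie in exons of NRDE2, and since strand use in counting is not given, reads of such overlaps cannot be told apart. PSMA8, the testis form of an alpha subunit, had 0 reads in all 8 libraries, and PSMB11, the thymus form of a beta subunit, had 1 read in 1 library. At these depths 3 reads, the limit that a count of 0 allows, correspond to 0.0868 to 0.115 RPM, reads per 1e6, for counting error only. PSMA8 and PSMB11 were not tested in either comparison, nor was PSMC1 in the LNA table, which left 46 genes for LY6K-AS and 47 for YWHAG. They passed a filter of 0.5 RPKM in at least 2 of the 4 libraries of a comparison.

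The first comparison asked how the proteasome genes stood when LY6K-AS was depleted. Most were slightly lower: 35 of the 46 had a log2 change below 0 (49.7% of the 14662 genes tested did), the median was -0.16 (0.00 over all genes), and 29 were lower in both knockdown libraries than in both controls (30.5% of all genes), against 2 that were higher in both (31.4%). None passed over all genes, where limma called 0 of 14662 (0%) and the smallest adjusted p was 0.103. At an unadjusted p under 0.05 there were 15 members, all lower, where 11.7% of all genes were lower and 25.3% passed in either direction. Without PSMC3IP, 34 of 45 had a log2 change below 0 and 28 were lower in both knockdown libraries than in both controls. The limma count at an unadjusted p under 0.05 was then 14. The median difference from the control mean was -0.23 in knockdown library 1 and -0.12 in library 2. Without library 1, in a fit that takes the spread of the controls for the knockdown library left, 21 members passed (17 lower, 4 higher) and 52.7% of all genes did. Without library 2 it was 22 members, all lower, and 29.7% of all genes.

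**Figure D1:**
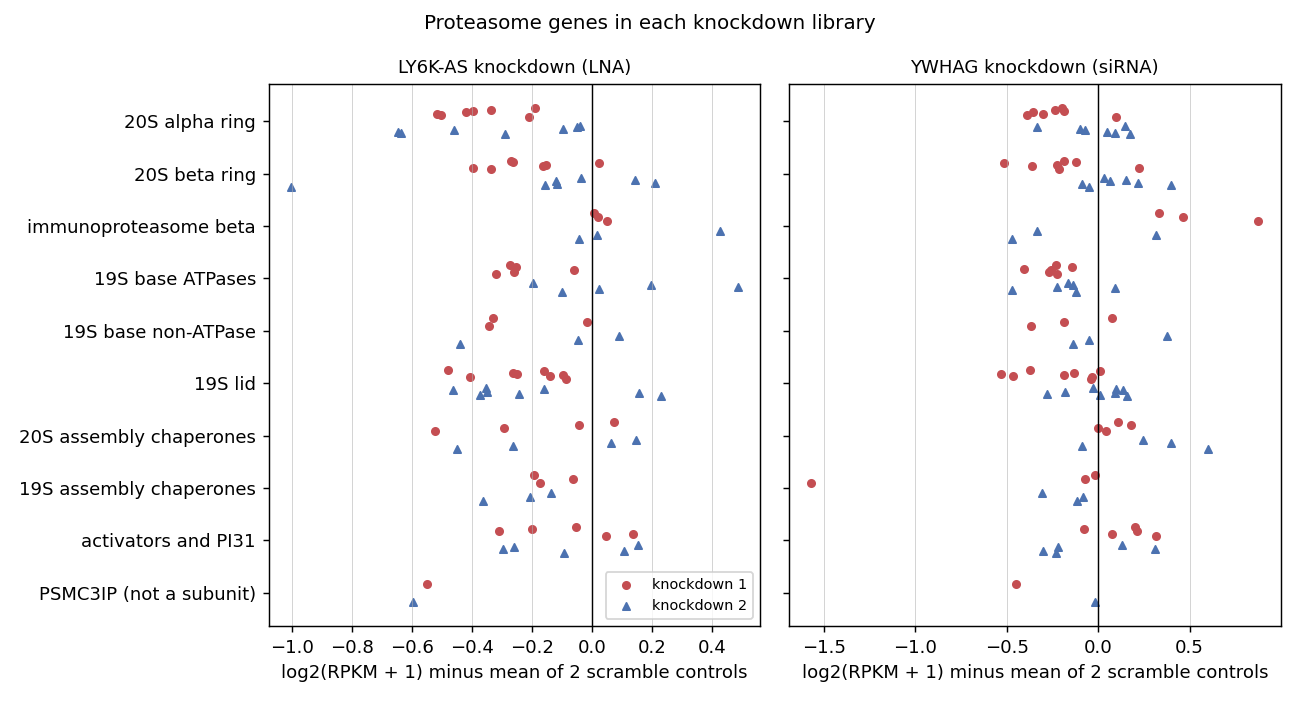
Difference of each knockdown library from the mean of its 2 scramble controls, in log2(RPKM + 1) (x axis). Points are the tested members, PSMC3IP included, by role (rows). LY6K-AS knockdown is on the left and YWHAG knockdown on the right. Circles are knockdown library 1 and triangles library 2. The 7 alpha genes lie below 0 in both LY6K-AS knockdown libraries, the immunoproteasome genes lie at or above 0 in LY6K-AS knockdown 1, and PSMD5 stands alone at -1.57 in YWHAG knockdown 1.

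In the alpha ring every member was lower. All 7 genes lay lower in both LY6K-AS knockdown libraries than in both controls (30.5% of all genes tested did). The median log2 change was -0.25, with medians of -0.40 and -0.29 in libraries 1 and 2. PSMA3 had 23.2 and 21.2 RPKM in the LY6K-AS knockdown libraries, against 34.1 and 33.2 RPKM in the scramble LNA libraries. Its log2 change was -0.58 ± 0.09 (SE; limma adjusted p = 0.103). PSMA2, which shares 34.6% of its exon bases with exons of neighbouring genes, had 2.10 and 1.83 RPKM against 3.52 and 3.26 RPKM in the controls (log2 change -0.57 ± 0.11, limma adjusted p = 0.105). PSMA4 had 28.1 and 27.3 RPKM in the knockdown libraries and 39.5 and 36.3 RPKM in the controls (-0.44 ± 0.09, limma adjusted p = 0.111). In these 3 genes the knockdown libraries lay close together and well clear of the controls. PSMA1 (-0.25), PSMA5 (-0.25), PSMA6 (-0.19) and PSMA7 (-0.11) were nearer to their controls. PSMA7 had 182 and 202 RPKM against 211 and 204 RPKM, a gap in library 2 no larger than that between the controls.

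Of the constitutive beta genes, 6 of 7 had a log2 change below 0 (49.7% of all genes), with a median of -0.14. Lower in both knockdown libraries than in both controls were 4 of the 7 (30.5% of all genes). PSMB1, a structural beta subunit, had 32.5 and 20.05 RPKM in the LY6K-AS knockdown libraries and 42.3 and 40.1 RPKM in the scramble LNA libraries, the largest difference of the 46 (-0.67). Its knockdown libraries differed more from each other than any control pair of the ring: the difference from the control mean was -0.33 in library 1 and -1.004 in library 2, which lay at the 2.17th percentile of all genes in that library. PSMB2 was at 20.7 and 24.6 RPKM in the knockdown libraries and 27.8 and 27.2 RPKM in the controls. PSMB3 (-0.14) and PSMB4 (0.03) were nearer to their controls than these. PSMB5, of the chymotrypsin-like site, had 91.1 and 82.5 RPKM in the knockdown libraries and 92.7 and 86.7 RPKM in the controls, so the groups overlapped. PSMB6, of the caspase-like site, had 139.9 and 186 RPKM around controls of 168 and 168 RPKM. PSMB7, of the trypsin-like site, had 89.3 and 105 RPKM against 110.1 and 106 RPKM.

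The immunoproteasome genes had log2 changes at or slightly above 0, and their difference from the core was not tested. PSMB8 had 1.03 and 0.907 RPKM in the LY6K-AS knockdown libraries and 0.923 and 1.00 RPKM in the scramble LNA libraries (log2 change 0.00 ± 0.10 SE, limma adjusted p = 0.984). PSMB9 had 0.945 and 0.938 RPKM in the knockdown libraries and 0.939 and 0.895 RPKM in the controls (0.02 ± 0.09, limma adjusted p = 0.918). PSMB10 had 1.73 and 2.66 RPKM against 1.95 and 1.502 RPKM (0.22 ± 0.19, limma adjusted p = 0.502). The direction of all 3 depended on the processing: with the GC trend over all genes removed PSMB8 was at -0.067 and PSMB10 at -0.084, and with voom and quantile normalization PSMB9 was at -0.12. In all 3 the groups overlapped, and the 76 to 98 reads per library behind PSMB9 leave an interval of 0.74 to 1.18 RPKM on its value in knockdown library 1 (exact Poisson, 95%).

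In the 19S base, 4 of the 5 tested ATPase genes had a log2 change below 0 (median -0.12), and 2, PSMC2 and PSMC6, were lower in both knockdown libraries than in both controls, 2 of 5 where 30.5% of all genes were. The ATPase median was -0.26 in library 1 and 0.02 in library 2, so its direction turned with the library. PSMC4 had 199.8 and 292 RPKM in the LY6K-AS knockdown libraries and 211 and 205 RPKM in the scramble LNA libraries, so that library 2 alone stood high (0.49) and library 1 slightly low (-0.06). Among the 3 non-ATPase genes of the base, the scaffold gene PSMD1 had 39.2 and 36.6 RPKM in the knockdown libraries against 50.3 and 49.7 RPKM in the controls, a difference of -0.39. The other scaffold gene, PSMD2, had 72.02 and 70.5 RPKM against 73.3 and 72.3 RPKM. PSMD4, a ubiquitin receptor, had 34.4 and 46.4 RPKM and overlapped its controls of 43.8 and 43.2 RPKM.

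In the lid, 6 of 8 genes were lower in both knockdown libraries than in both controls (30.5% of all genes). The lid median was -0.25. PSMD14, the metalloprotease that removes ubiquitin chains at the lid, had 12.7 and 13.9 RPKM in the LY6K-AS knockdown libraries, against 18.3 and 17.8 RPKM in the scramble LNA libraries. Its log2 change was -0.42 ± 0.09 (SE; limma adjusted p = 0.116), the sixth smallest p of the 46. PSMD6 was at 6.73 and 6.92 RPKM in the knockdown libraries, against 9.71 and 8.82 RPKM in the controls (-0.39 ± 0.10, limma adjusted p = 0.126). PSMD12 (-0.36), PSMD11 (-0.30), PSMD7 (-0.19) and PSMD13 (-0.16) were lower by less. PSMD3 and PSMD8 did not share the shift: PSMD3 had 66.0 and 82.4 RPKM around controls of 70.0 and 70.2 RPKM, and PSMD8 had 112 and 133 RPKM around controls of 122 and 118 RPKM.

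Among the assembly factors the differences were unequal. PSMG1 and PSMG2 form the chaperone on which the alpha ring is built. PSMG1 had 11.5 and 12.1 RPKM in the LY6K-AS knockdown libraries, against 16.6 and 17.2 RPKM in the scramble LNA libraries (log2 change -0.49 ± 0.09 SE, limma adjusted p = 0.104). PSMG2 had 6.70 and 6.86 RPKM against 8.20 and 8.68 RPKM in the controls, a difference of -0.28. The second chaperone pair did not match this, with PSMG3 at 20.4 and 22.1 RPKM around controls of 20.7 and 21.4 RPKM, and PSMG4 at 1.79 and 1.94 RPKM, above its controls of 1.60 and 1.71 RPKM. The 19S chaperones PSMD5 (-0.27), PSMD9 (-0.13) and PSMD10 (-0.17) were lower in both knockdown libraries than in both controls (30.5% of all genes).

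The activators also divided. PSME1 and PSME2 encode the interferon-inducible cap of the core. PSME1 had 50.3 and 45.6 RPKM in the LY6K-AS knockdown libraries and 49.6 and 47.9 RPKM in the scramble LNA libraries (log2 change -0.02 ± 0.10 SE, limma adjusted p = 0.891). PSME2 had 25.4 and 24.8 RPKM in the knockdown libraries, slightly above 24.1 and 22.0 RPKM in the controls (0.12 ± 0.09, limma adjusted p = 0.442). The nuclear activator PSME3 had 49.7 and 50.2 RPKM in the knockdown libraries, against 60.9 and 62.8 RPKM in the controls (-0.30 ± 0.08, limma adjusted p = 0.142). PSME4 was at 13.1 and 12.5 RPKM against 15.1 and 15.1 RPKM, and the regulator PSMF1 at 40.3 and 46.6 RPKM overlapped its controls of 41.2 and 42.4 RPKM. PSMC3IP, the recombination cofactor, had the smallest p of the 46, at 4.38 and 4.203 RPKM in the knockdown libraries against 6.85 and 6.90 RPKM in the controls (-0.57 ± 0.09, limma adjusted p = 0.103).

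**Figure D2:**
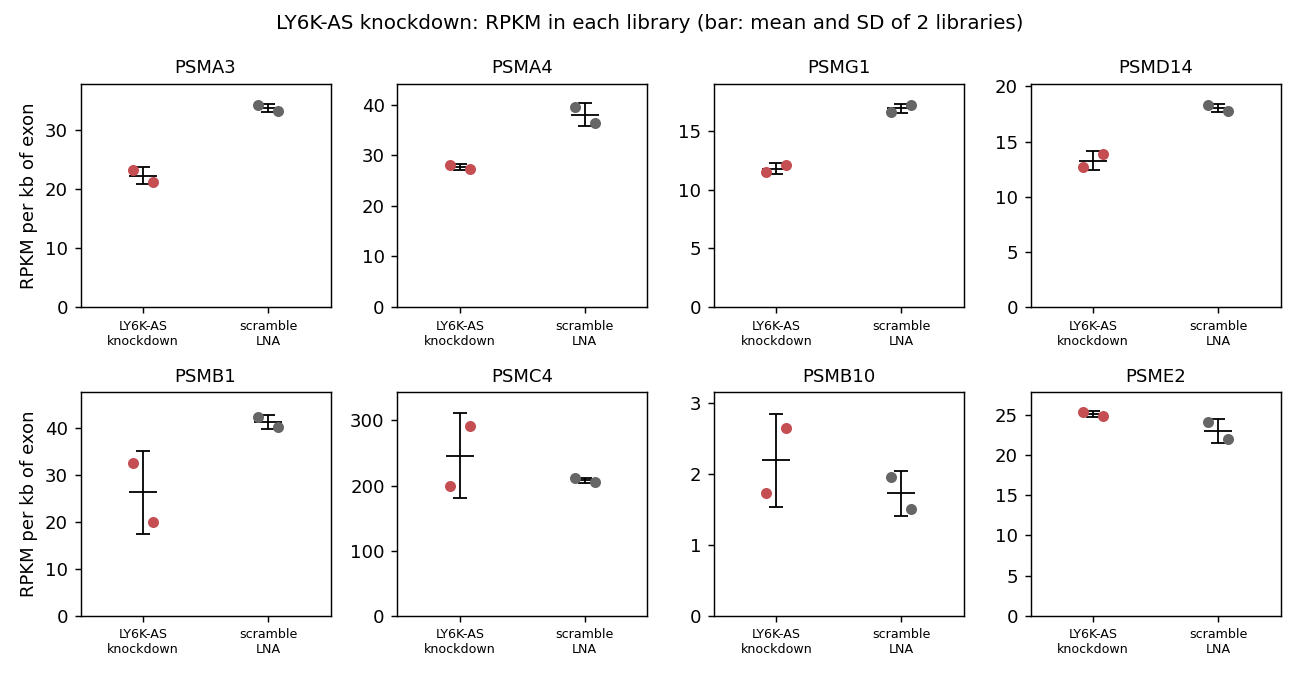
RPKM per kilobase of exon (y axis, from 0) of 8 proteasome genes in the LY6K-AS knockdown libraries (red, left) and the scramble LNA libraries (grey, right); points are libraries in the order 1, 2, and bars the mean and SD of 2. PSMA3, PSMA4, PSMG1 and PSMD14 lie clear of their controls, PSMB1 and PSMC4 differ between the knockdown libraries, and PSMB10 overlaps its controls.

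Summed over the 48 proteasome genes, the level was 6105 ± 481 RPM in the LY6K-AS knockdown libraries and 6645 ± 92.6 RPM in the scramble LNA libraries (mean ± SD, n = 2), a ratio of 0.919. The sums were 5765 and 6445 in knockdown libraries 1 and 2, both under the controls at 6711 and 6580. The constitutive 20S core had a ratio of 0.873 and the 19S particle, its assembly chaperones left out, 0.950. The 19S sums were 3035 and 3517 RPM in knockdown libraries 1 and 2, against 3481 and 3415 RPM in the controls. The sum of library 2 thus lay above both controls and that of library 1 below them. The sum of library 2 includes PSMC4, at 292 RPKM there against 211 and 205 RPKM in the controls. Median differences from the control mean in library 2 were -0.30 for the lid, -0.05 for the non-ATPase base genes and 0.02 for the ATPases. The sum without PSMC4 was not computed.

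The size of the difference went with the GC content of the transcripts. Over the 46 genes the log2 change had a Spearman rho of 0.76 with transcript GC, with 0.66 and 0.71 for knockdown libraries 1 and 2 taken alone and 0.09 for the difference between the controls. Over all 14662 genes rho was 0.54. These are descriptions across genes, which share libraries and are not independent replicates. Of the 23 genes at or under the members' median GC (49.1%), 22 were lower in both knockdown libraries than in both controls. Their median was -0.28. Above that GC content, 7 of 23 were lower in this way, with a median of -0.03. Over all genes tested the share was 30.5%, and the share among all genes of like GC content was not counted. The alpha genes averaged 42.9% GC, the lid genes 47.1%, the immunoproteasome genes 55.5%, all members 48.2% and all tested genes 50.5%. With the GC trend over all genes removed from each library the members' median was -0.12 and 40 of 46 were below 0, the alpha ring's median was -0.14 and the lid's -0.17. How much of the difference between the groups goes with GC content beyond this was not tested.

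**Figure D3:**
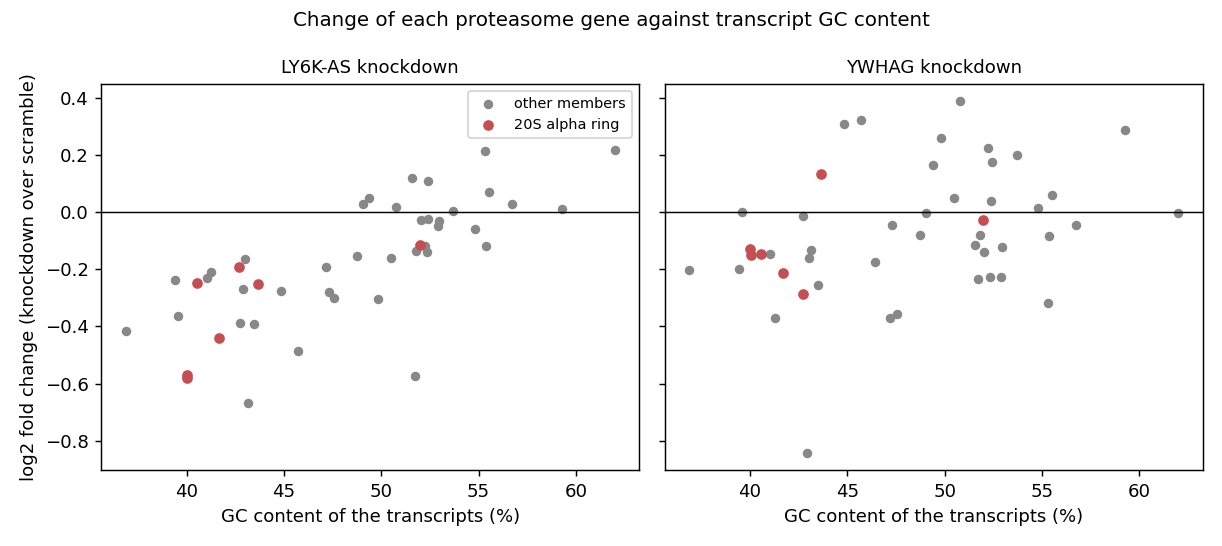
Log2 fold change of each tested member, PSMC3IP included (y axis, knockdown over scramble), against the GC content of its transcripts in percent (x axis). LY6K-AS knockdown is on the left and YWHAG knockdown on the right, and red points are the alpha genes. The alpha genes sit at the low-GC end and below 0 on the left, and Spearman rho is 0.76 on the left and 0.36 on the right.

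The second comparison asked the same of YWHAG depletion. Here the proteasome genes lay close to the rest of the transcriptome: 32 of 47 had a log2 change below 0 (57.6% of the 13903 genes tested did), with a median of -0.08 (-0.05 over all genes). With each library centred on its median gene it was 26 of 47. The median was -0.19 in knockdown library 1 and -0.03 in library 2. Of the 47, 15 were lower in both knockdown libraries than in both controls (30.8% of all genes) and 9 higher (20.4%). None passed, where limma called 0 of 13903 genes (0%; smallest adjusted p 0.130), and 2 had an unadjusted p under 0.05 (16.4% of all genes), 1 lower (8.9%) and 1 higher (7.51%).

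The immunoproteasome genes gave the largest positive differences of any member in knockdown library 1, and only PSMB9 was higher in both libraries than in both controls. PSMB9 had 1.02 and 0.820 RPKM in the YWHAG knockdown libraries, against 0.444 and 0.482 RPKM in the scramble siRNA libraries (log2 change 0.39 ± 0.12 SE, limma adjusted p = 0.262). The values rest on 108 and 85 reads in the knockdown libraries and 47 and 51 reads in the controls. PSMB8 had 4.26 and 1.06 RPKM around controls of 1.84 and 1.89 RPKM (0.20 ± 0.44, limma adjusted p = 0.847), so library 1 stood above the controls and library 2 below them. PSMB10 had 1.58 and 0.624 RPKM, on both sides of its controls of 0.955 and 1.14 RPKM (-0.00 ± 0.24, limma adjusted p = 0.999). PSMB8 shares 20.6% of its exon bases with exons of PSMB9 and PSMB8-AS1, and PSMB10 34.8% with exons of AC040162.1.

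The interferon-inducible activators went the same way by library. PSME1 had 58.5 and 39.7 RPKM in YWHAG knockdown libraries 1 and 2, around controls of 47.4 and 46.3 RPKM (log2 change 0.04 ± 0.21 SE, limma adjusted p = 0.938). PSME2 had 25.0 and 19.02 RPKM against 24.3 and 23.1 RPKM (-0.11 ± 0.17, limma adjusted p = 0.775). The list of antigen processing and interferon response genes, given below, also had opposite medians in these libraries. Whether the members' difference between libraries belongs to the same difference was not tested.

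PSMD5, the chaperone that holds the base ATPases before assembly, had the most extreme value of any member in any library. It had 6.63 and 19.9 RPKM in YWHAG knockdown libraries 1 and 2, against 23.1 and 20.3 RPKM in the scramble siRNA libraries. The difference of library 1 from the control mean, -1.57, lay at the 0.201st percentile of 13903 genes, and that of library 2 was -0.12. The interval on the value in library 1, 6.23 to 7.05 RPKM (exact Poisson, 95%), rests on 1016 reads. PSMD5 (chromosome 9, 120815496 to 120842984, hg38) shares no exon bases with another annotated gene. Of its annotated neighbours, B3GNT10 was also low in library 1 alone, with 2.10 and 3.63 RPKM in the knockdown libraries against 3.65 and 3.51 RPKM in the controls. FBXW2 was low in both, with 5.64 and 5.49 RPKM against 8.27 and 8.04 RPKM, and PHF19 had 8.26 and 7.18 RPKM against 9.33 and 9.14 RPKM. CUTALP, which overlaps the span of PSMD5 on the other strand, had 2.69 and 3.36 RPKM against 2.24 and 2.34 RPKM, and TRAF1 1.04 and 0.510 RPKM around controls of 0.877 and 0.972 RPKM. The test of both libraries gave a log2 change of -0.84, with an unadjusted p of 0.139.

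Among the other members the smallest p belonged to PSMD7, the lid partner of PSMD14. PSMD7 had 37.1 and 42.2 RPKM in the YWHAG knockdown libraries, against 51.8 and 51.2 RPKM in the scramble siRNA libraries (log2 change -0.37 ± 0.14 SE, limma adjusted p = 0.292). The ATPase gene PSMC2 had 33.5 and 28.98 RPKM against 44.0 and 37.4 RPKM (-0.37 ± 0.16, limma adjusted p = 0.326). PSMC4 had 103 and 116 RPKM against 139.6 and 133 RPKM (-0.32 ± 0.14, limma adjusted p = 0.332). All 6 ATPase genes had a log2 change below 0 (57.6% of all genes), with a median of -0.19. Lower in both knockdown libraries than in both controls were 5 of the 6 (30.8% of all genes). PSMD11, a lid scaffold gene, had 31.6 and 40.6 RPKM in the knockdown libraries against 47.7 and 44.7 RPKM in the controls (-0.36 ± 0.17, limma adjusted p = 0.361). PSMB2 was higher in both knockdown libraries, with 25.1 and 28.5 RPKM against 22.0 and 20.7 RPKM (0.31 ± 0.14, limma adjusted p = 0.339).

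**Figure D4:**
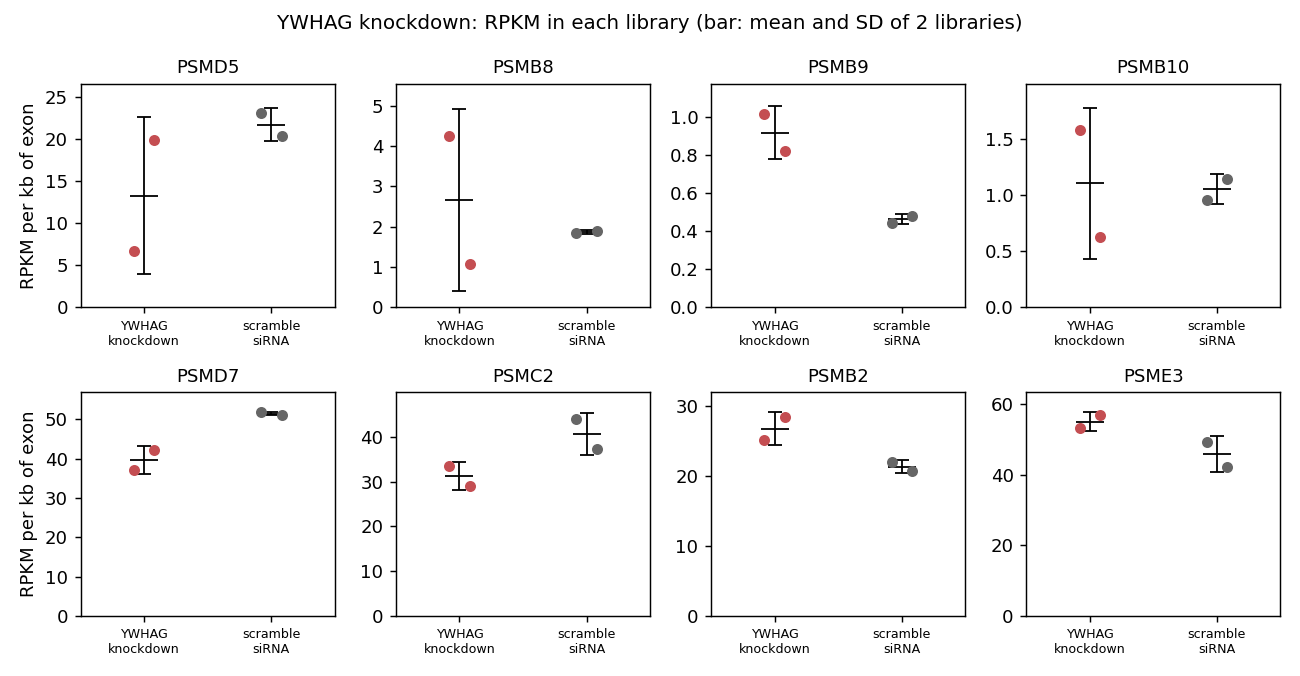
RPKM per kilobase of exon (y axis, from 0) of 8 proteasome genes in the YWHAG knockdown libraries (red, left) and the scramble siRNA libraries (grey, right); points are libraries in table order, and bars the mean and SD of 2. PSMD5 is low in knockdown library 1 alone, PSMB8 and PSMB10 lie on both sides of their controls, and PSMB9, PSMB2 and PSME3 lie above theirs.

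In the alpha ring 6 of 7 genes had a log2 change below 0 after YWHAG knockdown (57.6% of all genes). PSMA4, PSMA5 and PSMA6, 3 of its 7 genes, were lower in both knockdown libraries than in both controls (30.8% of all genes). The ring's median was -0.14 (-0.05 over all genes), with medians of -0.24 and 0.05 in libraries 1 and 2. The beta ring had medians of -0.21 and 0.06, with PSMB5 at 66.2 and 99.2 RPKM in the knockdown libraries and 90.4 and 99.6 RPKM in the controls. Of the 20S chaperones, 3 of 4 were higher in both knockdown libraries than in both controls (20.4% of all genes). PSMG1 had 13.3 and 20.1 RPKM against 12.7 and 13.0 RPKM. PSMG3 had 13.9 and 16.3 RPKM against 10.6 and 13.9 RPKM, in library 1 only just higher. PSMG4 had 0.980 and 1.18 RPKM against 0.799 and 0.875 RPKM. The summed level of the 48 genes was 5746 ± 539 RPM in the YWHAG knockdown libraries and 6165 ± 185 RPM in the scramble siRNA libraries (mean ± SD, n = 2). The ratio was 0.932, and the groups overlapped (5365 and 6127 against 6296 and 6034). The constitutive 20S core had a ratio of 0.941, with 1601 and 1965 RPM on both sides of controls at 1879 and 1911 RPM. The 19S particle had a ratio of 0.899, with 2682 and 3088 RPM against 3308 and 3112 RPM, in library 2 only just below the controls. Spearman rho with transcript GC was 0.36 over the 47 genes and 0.03 over the 13755 genes with a GC value.

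The knockdown effects were then set against each other, each measured within its own table, in 1 fit over all 8 libraries. The difference, YWHAG minus LY6K-AS effect, passed in 23 of 12861 genes (0.179%) and in 0 of the 46 members. The count of 23 fell to 0 when any 1 of the 4 controls or LY6K-AS knockdown library 2 was left out, and was 1185 without LY6K-AS knockdown library 1 and 718 and 735 without YWHAG knockdown libraries 1 and 2. It was below 0 in 15 members (54.3% of all genes). An unadjusted p below 0.05 was reached by 5 members (20.4% of all genes), all with a positive difference (8.86% of all genes had both). The smallest p belonged to PSME3 (difference 0.56 ± 0.17 SE, limma adjusted p = 0.143). It was followed by PSMB2 (0.59 ± 0.18, limma adjusted p = 0.149), PSMG1 (0.81 ± 0.25, limma adjusted p = 0.150), PSMB9 (0.37 ± 0.15, limma adjusted p = 0.224), PSMD6 (0.38 ± 0.15, limma adjusted p = 0.229) and PSMA3 (0.45 ± 0.20, limma adjusted p = 0.261). In PSME3, PSMB2 and PSMG1 the LY6K-AS knockdown libraries were below their controls and the YWHAG knockdown libraries above theirs. In PSMA3 and PSMD6 the LY6K-AS knockdown libraries were below their controls and the YWHAG knockdown libraries overlapped theirs.

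Lower in both knockdowns, each against both of its own controls, were 12 of the 46 genes (26.1%), where 11.7% of the 12861 genes tested in both were. They were PSMA4, PSMA5 and PSMA6 of the alpha ring, PSMB1 and PSMB3 of the beta ring, PSMC2, PSMC6 and PSMD1 of the base, PSMD7 and PSMD11 of the lid, and the 19S chaperones PSMD5 and PSMD9. Some cleared the scramble siRNA controls narrowly. In YWHAG knockdown library 2, PSMB1 had 52.6 RPKM against a nearest control of 52.8 RPKM, and PSMD5 19.9 against 20.3 RPKM. PSMD9 had 0.501 and 0.493 RPKM against 0.532 and 0.632 RPKM. The share of 26.1% was not tested. PSMG4 was higher in both (2.17% of the members, 6.38% of all genes).

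**Figure D5:**
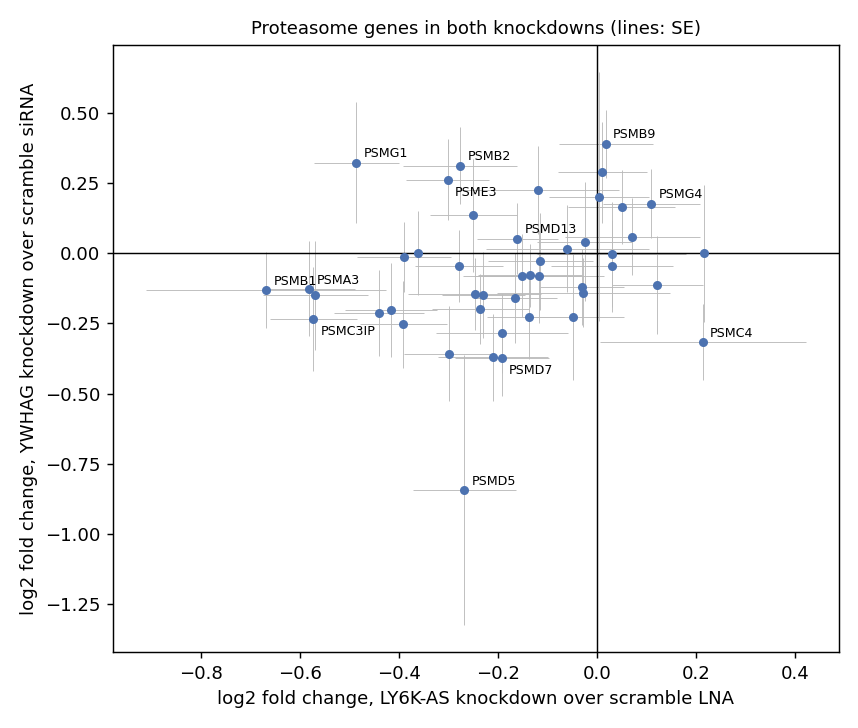
Log2 fold change of 46 genes, PSMC3IP included, after LY6K-AS knockdown over scramble LNA (x axis) and after YWHAG knockdown over scramble siRNA (y axis). Grey lines are the SE of each fit. PSMG1, PSMB2 and PSME3 lie at upper left, with negative values on the x axis and positive values on the y axis, and PSMD5 lies lowest at -0.84.

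Proteasome parts without a PSM symbol were also mostly lower after LY6K-AS knockdown: 9 of 12 had a log2 change below 0 (49.7% of all genes) and 8 were lower in both knockdown libraries than in both controls (30.5% of all genes), with a median of -0.31. POMP, the chaperone that joins the core particle's parts, had 45.7 and 45.8 RPKM in the LY6K-AS knockdown libraries, against 61.0 and 61.7 RPKM in the scramble LNA libraries. SEM1, the smallest 19S subunit, had 6.10 and 6.57 RPKM against 9.53 and 8.39 RPKM, and USP14, a deubiquitinase bound to the base, 9.07 and 11.6 RPKM against 15.1 and 15.5 RPKM. ADRM1, a ubiquitin receptor of the base, was higher, with 77.6 and 95.4 RPKM against 63.6 and 66.3 RPKM. After YWHAG knockdown 4 of the 12 were lower than both controls (30.8% of all genes; median -0.22), and the smallest p belonged to AKIRIN2, which brings proteasomes into the nucleus (16.2 and 17.6 RPKM against 20.5 and 20.2 RPKM), followed by ECPAS and TXNL1.

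Of 8 genes for the transcription of proteasome genes, 7 had a log2 change below 0 after LY6K-AS knockdown (49.7% of all genes; median -0.12) and 6 after YWHAG knockdown (57.6% of all genes; median -0.21). NFE2L1, which encodes NRF1, the factor that induces proteasome genes when proteasome activity is short, had 58.8 and 71.7 RPKM in the LY6K-AS knockdown libraries and 59.8 and 63.3 RPKM in the scramble LNA libraries, so the groups overlapped. In the other comparison it had 39.6 and 44.3 RPKM in the YWHAG knockdown libraries and 48.0 and 45.0 RPKM in the scramble siRNA libraries. The smallest p of the list belonged in both comparisons to NFYA, a subunit of NF-Y. NFYA had 7.54 and 7.90 RPKM in the LY6K-AS knockdown libraries against 8.88 and 8.95 RPKM in their controls, and 7.24 and 8.28 RPKM in the YWHAG knockdown libraries against 11.9 and 10.6 RPKM in theirs. NFYC and NFE2L2 came next after LY6K-AS knockdown, and NFYB and DDI2 after YWHAG knockdown.

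Ubiquitin itself stood apart by gene. Of 6 genes for ubiquitin and its activation, 3 were below 0 after LY6K-AS knockdown (median 0.05) and 1 after YWHAG knockdown (median 0.03). RPS27A, a ubiquitin fusion gene whose length could not be checked, had 32.9 and 33.4 RPKM in the LY6K-AS knockdown libraries, against 56.5 and 52.4 RPKM in the scramble LNA libraries, while UBB, a polyubiquitin gene, had 225 and 238 RPKM against 202 and 186 RPKM. The activating enzyme UBA6 came next by p. After YWHAG knockdown the smallest p belonged to RPS27A and UBA6. The shuttle receptors had medians of -0.07 and -0.08, with RAD23B, UBQLN1 and UBQLN4 first after LY6K-AS knockdown and UBQLN1, UBQLN4 and RAD23B after YWHAG knockdown. The COP9 signalosome, a complex built like the lid, had 8 of 10 genes lower than both controls after LY6K-AS knockdown (30.5% of all genes; median -0.25), with COPS3 (30.4 and 27.2 RPKM against 45.7 and 41.9 RPKM), COPS8 and COPS9 first. After YWHAG knockdown none of the 10 was (30.8% of all genes; median -0.03), with COPS2, COPS3 and COPS8 first.

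The TRiC chaperonin, which folds cytoskeletal and cell-cycle proteins, had all 8 genes lower than both controls after LY6K-AS knockdown (30.5% of all genes; median -0.40), with CCT6A, CCT5 and CCT8 first by p. CCT6A had 81.1 and 86.8 RPKM in the LY6K-AS knockdown libraries, against 115 and 111 RPKM in the scramble LNA libraries. After YWHAG knockdown 6 of the 8 were (30.8% of all genes; median -0.21), with TCP1, CCT8 and CCT5 first. TRiC transcripts averaged 45.2% GC and the non-PSM proteasome parts 45.2%.

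The antigen processing and interferon response genes had 12 of 15 log2 changes above 0 after LY6K-AS knockdown (7374 of 14662 genes tested did). The median was 0.40, with 0.25 and 0.31 in libraries 1 and 2. Of the 15, 9 were higher in both knockdown libraries than in both controls (31.4% of all genes) and 3 lower (30.5%). TAPBP and ISG15 were among the 3 genes of the list with the smallest p. The transcripts averaged 52.3% GC. After YWHAG knockdown 11 of 13 log2 changes were above 0 (5895 of 13903 genes tested were). The median was 0.28, with medians of 0.76 and -0.27 in libraries 1 and 2. Of the 13, 3 were higher in both knockdown libraries than in both controls (20.4% of all genes) and 2 lower (30.8%). TAP1 and ERAP1 were among the 3 with the smallest p there. IFI6 showed the difference between libraries, with 9.23 and 1.51 RPKM in YWHAG knockdown libraries 1 and 2, around controls of 2.15 and 2.75 RPKM; it was chosen after its values were seen. No gene of these 7 lists passed over all genes in either comparison.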

How the data were processed

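The authors deposited RPKM in 2 tables, 1 for the LNA and 1 for the siRNA libraries, each normalized on its own. The submitters' processing notes name STAR, featureCounts, Subread, Picard and hg38; versions and strand use are not given in the sources used here. Each file holds 66206 identifiers, of which 57055 matched GENCODE 29 and 52238 did so with the same version. RPKM times gene span gave whole reads (within 0.05) for 100% of low values of same-version genes of the LNA libraries, and RPKM times merged exon length for 35.1 to 35.8%. For the siRNA libraries it was exon length that gave 100%. LNA values were rescaled to merged exon length. The divisor does not tell whether the LNA reads were counted in exons only, and rescaling does not change this. PSMB8, PSMC2, PSMD11 and PSME2 have another version, so their lengths were not checked.

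Per comparison, log2(RPKM + 1) of genes with 0.5 RPKM in at least 2 of 4 libraries was fitted in limma 3.58.1 (trend on, R 4.3.3). Tests were two-sided and Benjamini-Hochberg adjusted, a call needed an adjusted p under 0.05, and there were 2 residual degrees of freedom per comparison (4 for the difference). Fold changes on this scale understate the change of low genes. The scripts were tested on simulated data. Depth is the total the RPKM values were scaled to. Intervals cover counting error only.

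Statistics are given for the targeted genes, PSMB8, PSMB9, PSMB10, PSME1, PSME2 and the 6 members with the smallest p per comparison; other lists are given by counts, medians and their 3 smallest p, of which some genes are not reported here. Members and lists were chosen with earlier results of these data known. The scramble siRNA columns bear the numbers 2 and 3 where the labels have 1 and 2, and therefore have a group but no sample. Alternatives changed the pseudocount, filter, scaling, length divisor, GC trend, model (voom on recovered reads), spread, block and libraries used.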

Additional observations from a re-analysis of the deposited data

Results flagged for a closer look

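In 4 proteasome genes the knockdowns lay in opposite directions: both LY6K-AS knockdown libraries were below both scramble LNA controls, and both YWHAG knockdown libraries were above both scramble siRNA controls. The difference between the effects, YWHAG minus LY6K-AS, was 0.81 for PSMG1, 0.59 for PSMB2, 0.56 for PSME3 and 0.21 for PSMD13 on the log2(RPKM + 1) scale. Tested over all 12861 genes, none passed (limma adjusted p = 0.150, 0.149, 0.143 and 0.445 in the same order). The same opposite pattern was seen in 6.10% of all genes tested in both tables and in 8.70% of the 46 members. PSMG1 had 13.3 RPKM in YWHAG knockdown library 1 and 20.1 RPKM in library 2, against 12.7 and 13.0 RPKM in its controls. Its YWHAG effect, 0.32, thus came mostly from library 2. The LY6K-AS effect that also enters the difference of 0.81 was -0.49. PSMD13 had 27.1 and 28.8 RPKM in the YWHAG knockdown libraries against 27.0 and 26.8 RPKM in the controls, so library 1 was above them by less than the controls differed from each other.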

How the results depend on the processing

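With 2 libraries per group and 2 residual degrees of freedom, no alternative fitted on the 4 libraries of a comparison alone called a gene. With the spread pooled over all 8 libraries 64 genes passed after LY6K-AS knockdown (25 higher, 39 lower) and 214 after YWHAG knockdown (140 higher, 74 lower), 0 of them members. With 1 library left out the LY6K-AS count ran from 0 to 7725 (7725 without knockdown 1, 4350 without knockdown 2, 0 without either control) and the YWHAG count was 0. The difference between the effects, with 23 genes called, had 1185 without LY6K-AS knockdown 1, 718 and 735 without YWHAG knockdown 1 and 2, 0 without LY6K-AS knockdown 2 or any 1 control, and 5 without a filter. The members' median ran from -0.23 to -0.12 after LY6K-AS knockdown and from -0.19 to -0.03 after YWHAG knockdown over all alternatives and libraries left out. Of 762 values of named genes, 703 kept direction and side of the threshold and 29 newly passed, all but 1 of them with a library left out; that 1 was YWHAG in its own knockdown with the pooled spread (-4.12, adjusted p = 0.0107).

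The other 30 values changed sign. After LY6K-AS knockdown PSMB8 was -0.0030 with libraries median-centred and -0.067 with the GC trend removed, with or without the replicate block, PSMB10 -0.084 with the GC trend removed, with or without the block, and PSMB9 -0.12 with voom and quantile normalization. With 1 library left out PSMB8 ran from -0.042 to 0.050, PSME1 from -0.094 to 0.045 and PSMC4 from -0.059 to 0.49. After YWHAG knockdown PSMB10 was 0.047 median-centred, and PSMD6 was 0.034 median-centred, 0.037 with the GC trend removed and 0.043 with voom and quantile normalization. With 1 library left out PSMD6 ran from -0.035 to 0.0083, PSMB10 from -0.33 to 0.33, PSMB8 from -0.47 to 0.87, PSME1 from -0.23 to 0.31, PSMA3 from -0.30 to 0.050, PSMA2 from -0.39 to 0.090 and PSME2 from -0.30 to 0.077. In the difference between the effects PSMB10 was 0.096 with the GC trend removed, and with 1 library left out it ran from -0.55 to 0.12, PSME1 from -0.21 to 0.34, PSMB8 from -0.48 to 0.87 and PSMD11 from -0.23 to 0.12. Causes were not tested.

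Libraries of the LNA table that share a number did not deviate together (correlation 0.0797 over 14662 genes). With the replicate number as a block 0 genes passed, with or without the GC trend removed. No paired analysis was possible because the scramble siRNA columns carry no number of the labels. Genes under the filter, PSMA8 and PSMB11 among them, are limited by depth.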
